A study of Mus musculus with 6 samples.

Results

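The WNT ligands, their Frizzled receptors and the regulators that act on them were followed as a family of 45 genes, out of 24346 gene symbols measured in 4T1 cells, an established mouse mammary carcinoma line. Members were taken by symbol alone: the 19 numbered Wnt ligand genes and the 10 numbered Frizzled genes, with co-receptors (Lrp5, Lrp6, Ryk, Ror1, Ror2), beta-catenin and its destruction complex (Ctnnb1, Axin1, Axin2, Apc), the transcription factors Tcf7 and Lef1, the secreted inhibitors Sfrp1 and Dkk1, and genes of ligand processing and receptor turnover (Porcn, Znrf3, Rnf43). Messenger RNA was sequenced from 3 groups of 2 libraries each. The shRNA3 and shRNA1 cells carried either of 2 short hairpin RNAs against AU021063, a long noncoding RNA, and WT denotes mock-transfected 4T1 cells. No culture with a non-targeting hairpin is named in the labels, which also leave unsaid whether replicate libraries stem from different cultures. A p-value therefore measures the spread between these 6 libraries only, and that spread may be technical.

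WNT proteins are secreted lipid-modified ligands that bind Frizzled receptors together with the co-receptors LRP5 or LRP6. Binding halts the destruction complex of AXIN and APC, so that beta-catenin accumulates and acts with TCF and LEF factors in the nucleus, and other branches run through ROR and RYK without beta-catenin. In the mammary gland these signals are known for their part in branching, in the upkeep of progenitor cells and in tumour formation.

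Values are in FPKM, a count of fragments scaled by transcript length and by the mapped total of the library, so levels can be compared between genes per length. The libraries summed to 560862 to 604022 FPKM and had 86.8% to 105.4% of the depth of WT replicate 1, as read from the steps between low values. The absolute depth is unknown. AU021063 was measured at 0.785 and 0 FPKM in the shRNA3 libraries, 1.04 and 0.572 FPKM in those of shRNA1 and 1.82 and 1.67 FPKM in those of WT, so that the 4 knockdown libraries averaged 34.4% of WT (exact two-sided permutation p = 0.133, the smallest that 4 against 2 libraries allow). Read from the steps between low values, these levels rest on 5 and 0 fragments with shRNA3, 6 and 3 with shRNA1 and 11 and 10 in WT, so that the percentage is imprecise. Of 6 epithelial markers, Krt8 and Krt18 carried nearly the whole sum, which was 738 to 742 FPKM with shRNA3, 1028 to 1095 FPKM with shRNA1 and 921 to 954 FPKM in WT, while Cdh1 was at 1.22 to 1.83 FPKM and the basal keratin gene Krt14 at 0 to 0.042 FPKM. The low markers Krt19 and Epcam did not follow the sum: Krt19 was at 12.4 and 13.2 FPKM with shRNA3, 19.8 and 20.4 FPKM with shRNA1 and 1.79 and 1.33 FPKM in WT, and Epcam was at 3.04 to 3.51 FPKM with shRNA3, 3.77 to 5.14 FPKM with shRNA1 and 2.04 to 2.18 FPKM in WT. The 8 fibroblast markers summed to 106 to 108 FPKM with shRNA3, 96.8 to 98.3 FPKM with shRNA1 and 80.5 to 81.8 FPKM in WT, nearly all from Pdgfra, Pdgfrb and Dcn, with Col3a1 and Thy1 at 0 in every library. These 3 moved apart: Dcn was at 46.1 and 44.4 FPKM with shRNA3, 34.8 and 37.0 FPKM with shRNA1 and 11.0 and 10.4 FPKM in WT, Pdgfra was at 37.9 and 39.7 FPKM with shRNA3, 41.9 and 41.8 FPKM with shRNA1 and 49.96 and 49.7 FPKM in WT, and Pdgfrb was at 17.9 to 21.8 FPKM throughout. The 8 macrophage and leukocyte markers summed to 27.7 to 28.1 FPKM with shRNA3, 16.02 to 18.5 FPKM with shRNA1 and 6.73 to 6.76 FPKM in WT, nearly all from Cd68, and their defining markers Ptprc, Itgam and Cd3e were at 0 in every library. The part of the fibroblast markers in the results on WNT genes was not tested.

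Of the 45 members 23 were expressed, which was taken to mean that the average of all 6 libraries was 1 FPKM or more. They comprised 5 of 19 ligands, 6 of 10 Frizzled receptors, 4 of 5 co-receptors, 3 of 4 genes of beta-catenin and the destruction complex, both transcription factors, 1 of 2 secreted inhibitors and 2 of 3 genes of processing and turnover. Wnt9a stood just inside this level at a mean of 1.28 FPKM, and Fzd3 and Fzd9 just outside at 0.627 and 0.605 FPKM. A further 11 members were listed at 0 in all 6 libraries: Wnt2, Wnt3a, Wnt5a, Wnt8a, Wnt8b, Wnt9b, Wnt16, Fzd8, Fzd10, Ror2 and Dkk1. Wnt9a reached this level only through the shRNA3 libraries, the group in which it was high. Counts of tested members therefore describe the expressed genes and not the whole family.

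Over both hairpins, 6 of the 23 tested members were higher than in WT and 5 were lower (limma on log2(FPKM + 1), Benjamini-Hochberg adjusted p under 0.05 over all 11079 genes tested). The share called was 47.8%, against 50.0% of all genes tested (24.1% higher and 25.9% lower), and so near the background. Wnt7b, Wnt6, Lrp5, Tcf7, Lef1 and Sfrp1 were higher, and Fzd6, Fzd2, Fzd1, Axin1 and Porcn were lower. With shRNA3 alone 9 members rose and 4 fell, beside 55.2% of all genes called (27.4% higher and 27.8% lower), and with shRNA1 alone 5 rose and 3 fell, beside 36.0% of all genes called (17.6% higher and 18.4% lower). The median log2 change of the tested members was 0.05 over both hairpins, beside -0.01 for all genes. With all 4 knockdown libraries in 1 group, which turns the difference between hairpins into spread, 4 members were higher (Wnt7b, Lrp5, Tcf7 and Sfrp1) and 1 was lower (Fzd6), and without WT replicate 2 the count was 6, while that of all genes was 4195, against 5538 with it. With every library rescaled to the same total, 34.3% of all called genes were higher over both hairpins, against 48.2% on the deposited values, with 37.6% against 49.7% for shRNA3 and 34.9% against 49.0% for shRNA1.

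**Figure D1:**
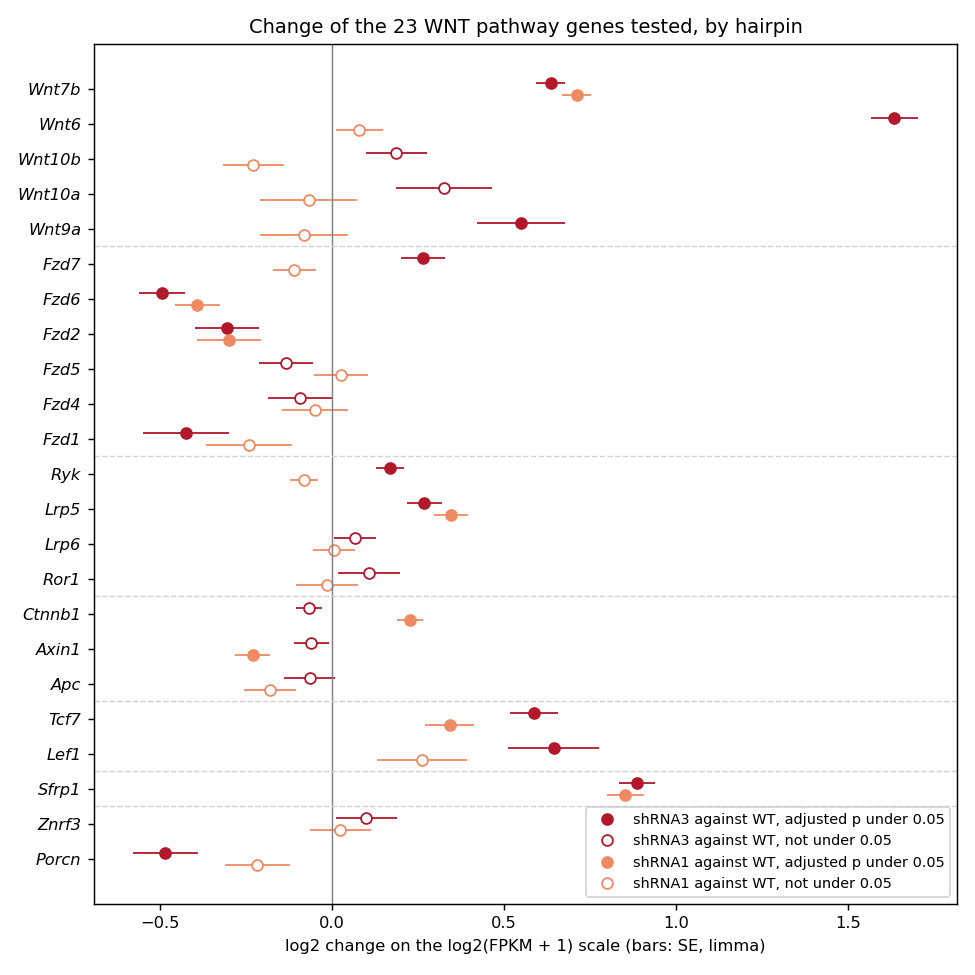
Log2 change of the 23 tested WNT genes, on the log2(FPKM + 1) scale, for shRNA3 against WT (red, upper mark of each row) and shRNA1 against WT (orange, lower mark), with the standard error from limma as bars, dashed lines between roles, and filled marks for an adjusted p under 0.05. Wnt6 lies far to the right for shRNA3 at 1.64 and near 0 for shRNA1 at 0.08, whereas the marks of Wnt7b, Fzd6, Lrp5 and Sfrp1 lie close together for both hairpins. Both comparisons use the same 2 WT libraries.

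The hairpins were also set against each other. The test of shRNA3 against shRNA1 called 8 of the 23 members higher and 1 lower with shRNA3, 39.1% of those tested, beside 42.5% of all genes (22.0% higher and 20.5% lower). Wnt6, Wnt9a, Wnt10b, Fzd7, Ryk, Axin1, Tcf7 and Lef1 were higher with shRNA3, and Ctnnb1 was lower. For Ryk, a receptor that also differed, the promoter sequence overlaps an exon by 3 bases and is not shown. The Wnt9a window, which is shown, overlaps an exon by 2 bases. Promoter sequences are shown for the 3 ligand genes and the Frizzled gene among the called members. Each is the 250 bases before the RefSeq start of the gene (GRCm38.p6, 5′ to 3′ on the strand of the gene), which 12 of the 23 expressed members have in the table of promoters. Capitals mark the motifs searched on both strands, as the letters given or their reverse complement. They were GGGCGG (GC box, bound by SP factors), ACGTG (core of the hypoxia response element) and CTTTGA (core of the TCF/LEF site). The windows are Wnt6 at chr1:74771642-74771891 (+), Wnt9a at chr11:59306680-59306929 (+), Fzd7 at chr1:59481897-59482146 (+) and Wnt10b at chr15:98778151-98778400 (-).
Wnt6: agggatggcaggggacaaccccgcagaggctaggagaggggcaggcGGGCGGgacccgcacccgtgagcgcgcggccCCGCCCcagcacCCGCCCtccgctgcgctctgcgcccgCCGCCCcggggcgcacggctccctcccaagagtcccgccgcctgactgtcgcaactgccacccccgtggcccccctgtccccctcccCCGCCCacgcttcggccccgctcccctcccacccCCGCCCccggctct
Wnt9a: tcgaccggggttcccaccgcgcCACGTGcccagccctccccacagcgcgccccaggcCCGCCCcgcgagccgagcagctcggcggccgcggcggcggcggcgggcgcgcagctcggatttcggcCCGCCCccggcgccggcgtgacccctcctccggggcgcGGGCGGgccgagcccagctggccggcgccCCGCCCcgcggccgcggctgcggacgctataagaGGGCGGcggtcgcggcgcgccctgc
Fzd7: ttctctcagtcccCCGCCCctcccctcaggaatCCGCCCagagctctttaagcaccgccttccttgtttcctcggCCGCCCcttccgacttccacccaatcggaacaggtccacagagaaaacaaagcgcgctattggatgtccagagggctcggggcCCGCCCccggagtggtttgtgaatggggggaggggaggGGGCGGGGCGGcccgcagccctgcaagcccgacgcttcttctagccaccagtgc
Wnt10b: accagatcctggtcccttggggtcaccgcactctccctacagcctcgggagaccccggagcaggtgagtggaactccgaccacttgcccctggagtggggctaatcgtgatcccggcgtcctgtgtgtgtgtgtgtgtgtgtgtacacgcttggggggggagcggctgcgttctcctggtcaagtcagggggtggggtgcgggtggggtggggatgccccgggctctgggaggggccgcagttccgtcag

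The Wnt6 window held 6 GC boxes, the Wnt9a window 5, the Fzd7 window 6, of which the pair nearest the start overlap, and the Wnt10b window 0. A GC box occurs in 32.7% of all 32851 RefSeq windows of this length. The hypoxia element core was found in the Wnt9a window alone among these 4, once on each strand in overlapping letters that read CACGTG, and it occurs in 16.6% of all windows. None of the 4 windows held CTTTGA, which 13.8% of all windows hold. Among the windows not shown, a window of Lef1, which also differed between the hairpins, held 2 TCF/LEF cores and 2 hypoxia cores. Other windows of Lef1 held neither core. The windows of Ror1 and Fzd1, not called between the hairpins, held 1 TCF/LEF core each. The windows were 79.6% G and C for Wnt6, 84.4% for Wnt9a, 65.2% for Fzd7 and 66.8% for Wnt10b, against a median of 52.4% over all windows. These matches describe letters in the reference genome and were not measured in these cells.

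Of the ligands, Wnt7b was the most abundant in every library, and Wnt6 differed most between the hairpins. Wnt7b, a ligand known from lung, kidney and placental development (chromosome 15, 85535437 to 85582473, minus strand, GRCm38), was at 57.3 and 57.7 FPKM with shRNA3, 60.5 and 60.8 FPKM with shRNA1 and 37.1 and 36.3 FPKM in WT. All 4 knockdown libraries lay above both WT libraries, and replicates differed by little. Wnt7b was 1.57-fold higher with shRNA3 and 1.65-fold higher with shRNA1, with a log2 change over both hairpins of 0.67 ± 0.04 (SE, limma, Benjamini-Hochberg adjusted p = 7.08e-06). The difference between the hairpins did not pass the test (log2 -0.08, 95% interval -0.17 to 0.02, adjusted p = 0.179). In bulk libraries a change in RNA per cell and a change in the share of cells that express a gene cannot be told apart, here and below. AU022754, an antisense gene whose exons overlap those of Wnt7b on the other strand, was at 0.074 to 0.268 FPKM, and no source used here tells whether reads were assigned by strand, so reads of such a pair may be mixed.

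Wnt6, a ligand of epithelia (chromosome 1, 74771892 to 74785322, plus strand), was at 14.4 and 15.01 FPKM with shRNA3, 4.47 and 4.21 FPKM with shRNA1 and 4.01 and 4.09 FPKM in WT. The shRNA3 libraries stood far above the other 4, among which the shRNA1 libraries lay just above WT. Its level with shRNA3 was 3.63-fold that of WT, a log2 change of 1.64 ± 0.07 (SE, limma, Benjamini-Hochberg adjusted p = 1.88e-06). With shRNA1 the ratio was 1.07 and the test was not passed (log2 0.08, 95% interval -0.08 to 0.24, adjusted p = 0.408). Set against shRNA1, the shRNA3 level was 3.39-fold higher (log2 1.56 ± 0.07, limma, adjusted p = 8.81e-06), which ranked 9 from the top among the 11079 genes. The call of Wnt6 over both hairpins thus came from shRNA3, and it ended with all 4 knockdown libraries in 1 group (adjusted p = 0.291, range over all settings 1.81e-05 to 0.291).

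Wnt10a, a ligand of skin appendages and teeth, starts 6193 bases beyond the end of Wnt6 on the same strand. It was at 3.05 and 4.14 FPKM with shRNA3, 2.61 and 2.33 FPKM with shRNA1 and 2.34 and 2.97 FPKM in WT. Both shRNA3 libraries were the highest, by a narrow margin over one of the WT libraries, and the replicates were far apart. Its log2 change with shRNA3 against shRNA1 was 0.39 ± 0.14 (SE, limma, Benjamini-Hochberg adjusted p = 0.0521), just short of the threshold, and against WT it was 0.33 ± 0.14 (adjusted p = 0.0795). In 5 of 14 alternatives the difference between the hairpins was called, among them the replicate block (adjusted p = 0.0470), quantile normalization (0.0348) and leaving out shRNA3 replicate 1 (0.0260, the lowest over all settings, up to 0.287). Against WT it was called without shRNA3 replicate 1 (0.0285, range over all settings 0.0285 to 0.419). Near this pair lie Prkag3, at 0 to 0.052 FPKM, Cyp27a1, at 0 throughout, Fev, likewise at 0, and Cdk5r2, at a mean of 0.907 FPKM.

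Wnt9a, a ligand of joint formation, was low in all libraries. It was at 1.94 and 1.93 FPKM with shRNA3, 1.06 and 0.747 FPKM with shRNA1 and 0.943 and 1.07 FPKM in WT. The shRNA3 libraries lay above the other 4, and the shRNA1 and WT libraries overlapped. Wnt9a reached the filter only through the shRNA3 libraries, so its place among the called members is no support for them. In a fit with no filter its log2 change was 0.63 against shRNA1 and 0.55 against WT (limma, Benjamini-Hochberg adjusted p = 0.00896 and 0.00864, ranges over all settings 0.00325 to 0.0336 and 0.00293 to 0.0371), on a scale that understates low genes, since the ratio of means was 2.15 against shRNA1 and 1.92 against WT. Wnt10b, a ligand that promotes bone formation and holds back fat cell formation, was at 7.73 and 7.69 FPKM with shRNA3, 5.87 and 5.20 FPKM with shRNA1 and 7.18 and 6.16 FPKM in WT. WT lay between the hairpin groups, and neither hairpin differed from it past the test, but shRNA3 was higher than shRNA1 (log2 0.42 ± 0.09, limma, adjusted p = 0.00718).

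Summed over the 19 ligand genes, the level was 84.98 and 87.5 FPKM with shRNA3, 75.9 and 74.3 FPKM with shRNA1 and 52.2 and 51.3 FPKM in WT. Wnt7b made up 67.4% and 66.0% of this sum with shRNA3, 79.7% and 81.8% with shRNA1 and 71.1% and 70.7% in WT. The share of Wnt6 was 16.9% and 17.2% with shRNA3, 5.89% and 5.66% with shRNA1 and 7.69% and 7.98% in WT. Without Wnt7b, the other ligands summed to 27.7 and 29.8 FPKM with shRNA3, 15.4 and 13.5 FPKM with shRNA1 and 15.1 and 15 FPKM in WT. The sum of all ligands was thus higher with either hairpin than in WT, and the sum without Wnt7b was higher with shRNA3 alone.

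**Figure D2:**
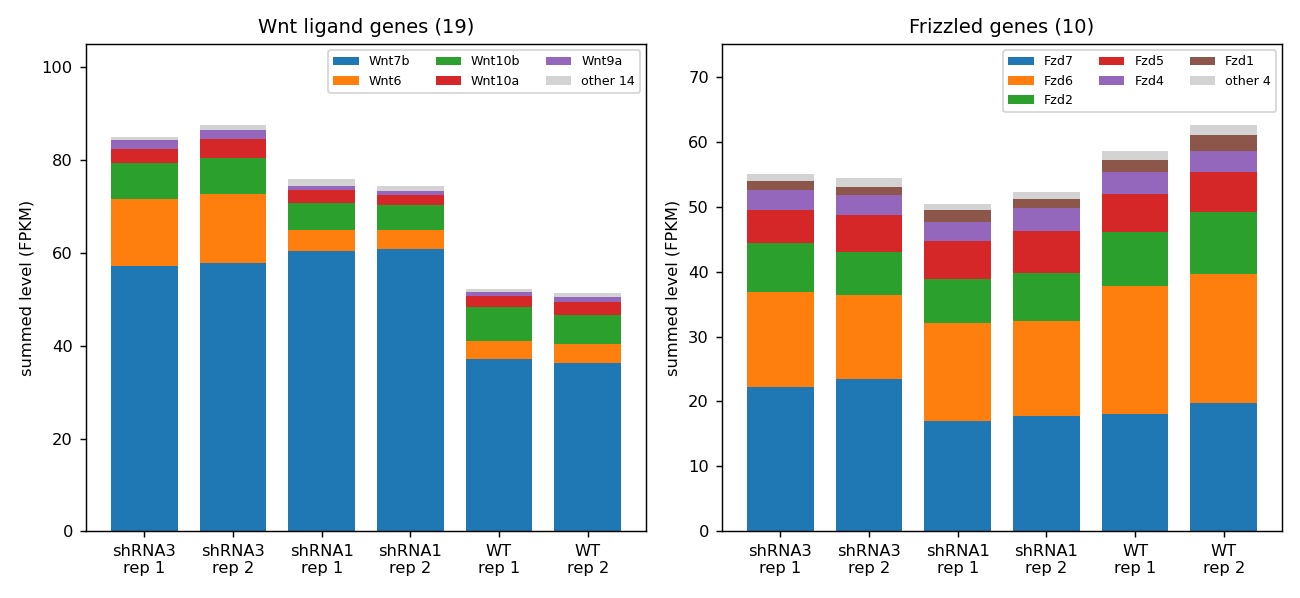
Summed level in FPKM of the 19 Wnt ligand genes (left) and the 10 Frizzled genes (right) in each library, as stacked bars, with shRNA3 at the left, shRNA1 in the middle and WT at the right of each panel. Wnt7b fills most of every ligand bar, the Wnt6 segment is thickest in the shRNA3 libraries, and the Frizzled bars are of similar height with a larger Fzd7 segment and a smaller Fzd6 segment in shRNA3 than in WT.

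Another 7 ligands were detected at a low level, and none of them reached 0.6 FPKM in any library. Wnt11 had the highest values, 0.320 and 0.531 FPKM with shRNA3, 0.560 and 0.292 FPKM with shRNA1 and 0.253 and 0.128 FPKM in WT. Its knockdown libraries all lay above the WT libraries, and it was below the filter of the test. For 5 of these ligands the values were whole multiples of 1 fragment, which gives the number of sequenced fragments behind them. Wnt5b, a ligand of the branch without beta-catenin, rested on 2 and 3 fragments with shRNA3, 8 and 9 with shRNA1 and 2 and 6 in WT. Wnt1, the ligand first found as a site of mouse mammary tumour virus insertion, rested on 1 and 5 fragments with shRNA3, 8 and 4 with shRNA1 and 6 and 9 in WT. Wnt2b had 4 to 8 fragments in each library, Wnt7a 0 to 5 and Wnt4, a ligand of mammary side branching, 0 to 3. In a fit with no filter, Wnt5b passed the test of shRNA3 against shRNA1 (log2 -0.26, limma, Benjamini-Hochberg adjusted p = 0.0375), and none of the other 6 passed any of the 4 tests.

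Among the Frizzled receptors, Fzd6, Fzd2 and Fzd1 fell while Fzd7 was higher with shRNA3. Fzd7 stood above Fzd6 in all knockdown libraries, and in WT they were at about the same level. Fzd7, a receptor tied to breast cancer of the basal type in earlier work, was at 22.2 and 23.5 FPKM with shRNA3, 17.003 and 17.8 FPKM with shRNA1 and 18.01 and 19.8 FPKM in WT. The shRNA3 libraries were the highest and those of shRNA1 the lowest, with WT between them. Fzd7 was 1.21-fold higher with shRNA3 than in WT (log2 0.26 ± 0.06, limma, Benjamini-Hochberg adjusted p = 0.00852) and 1.31-fold higher than with shRNA1 (log2 0.37 ± 0.06, adjusted p = 0.00263). The call against WT ended without WT replicate 1 (adjusted p = 0.0575) and without shRNA3 replicate 2 (0.0597, the highest over all settings, from 0.00628), whereas that against shRNA1 held in all alternatives.

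Fzd6, a receptor of planar cell polarity in hair and skin (chromosome 15, 39006034 to 39038188, plus strand), was at 14.6 and 12.9 FPKM with shRNA3, 15.1 and 14.6 FPKM with shRNA1 and 19.8 FPKM in both WT libraries. All knockdown libraries lay below WT. The fall was to 13.8 ± 1.19 FPKM with shRNA3 and 14.8 ± 0.299 FPKM with shRNA1, against 19.8 ± 0.0488 FPKM in WT (SD, n = 2 each), a log2 change over both hairpins of -0.44 ± 0.06 (SE, limma, adjusted p = 0.000506). Fzd6 and Fzd7 thus stood at 13.8 and 22.9 FPKM with shRNA3, and at 19.8 and 18.9 FPKM in WT, where they did not differ beyond the spread of Fzd7.

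Fzd2, a receptor that can signal with WNT5 ligands, was at 7.49 and 6.57 FPKM with shRNA3, 6.75 and 7.37 FPKM with shRNA1 and 8.27 and 9.60 FPKM in WT. Fzd1 was at 1.38 and 1.29 FPKM with shRNA3, 1.80 and 1.502 FPKM with shRNA1 and 1.89 and 2.40 FPKM in WT. For both genes all knockdown libraries lay below WT, and the WT replicates were far apart. Over both hairpins the log2 change was -0.30 ± 0.08 for Fzd2 and -0.33 ± 0.11 for Fzd1 (SE, limma, Benjamini-Hochberg adjusted p = 0.0152 and 0.0334). Both calls ended without WT replicate 2 (adjusted p = 0.128 for Fzd2 and 0.234 for Fzd1, the highest over all settings, from 0.00422 and 0.0173), and that of Fzd1 also without shRNA1 replicate 2 (0.0757), shRNA3 replicate 1 (0.0569) or shRNA3 replicate 2 (0.0728). The calls of Fzd2 with each hairpin alone (adjusted p = 0.0235 for shRNA3 and 0.0376 for shRNA1) likewise ended without WT replicate 2 (0.140 and 0.193, the highest over all settings, from 0.00674 and 0.0145), that of shRNA3 also without shRNA3 replicate 2 (0.139) or with no filter (0.0662). The call of Fzd2 for shRNA1 was also lost without either shRNA1 library (0.164 and 0.0611), with no filter (0.0968) and with a replicate block (0.0524). The call of Fzd1 with shRNA3 ended without WT replicate 2 (limma, adjusted p = 0.121, the highest over all settings, from 0.0108) and without either shRNA3 library (0.0583 and 0.0845), and over both hairpins it missed the threshold with a replicate block (0.0507).

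Fzd5 and Fzd4 did not pass any of the 4 tests. Fzd5 was at 5.10 and 5.63 FPKM with shRNA3, 5.86 and 6.36 FPKM with shRNA1 and 5.90 and 6.06 FPKM in WT, with a log2 change over both hairpins of -0.05 (95% interval -0.21 to 0.10). Fzd4, known as the receptor of norrin in retinal vessels, was at 3.12 and 3.10 FPKM with shRNA3, 2.96 and 3.52 FPKM with shRNA1 and 3.41 and 3.36 FPKM in WT, with a log2 change of -0.07 (95% interval -0.26 to 0.12). Groups overlapped or lay close together for both. Fzd3, below the filter, was at 0.393 and 0.435 FPKM with shRNA3, 0.635 and 0.628 FPKM with shRNA1 and 0.905 and 0.768 FPKM in WT, in 3 groups that did not overlap. In a fit with no filter its change with shRNA3 was -0.38 on the log2 scale (limma, adjusted p = 0.00499), and that with shRNA1 -0.17 (adjusted p = 0.0855). Fzd9 was at 0.641 and 0.971 FPKM with shRNA3, 0.339 and 0.445 FPKM with shRNA1 and 0.483 and 0.748 FPKM in WT.

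The 10 Frizzled genes summed to 55.0 and 54.4 FPKM with shRNA3, 50.4 and 52.3 FPKM with shRNA1 and 58.6 and 62.5 FPKM in WT. The sum was lower in every knockdown library than in either WT library, the reverse of the ligand sum. Fzd7 held 40.4% and 43.2% of it with shRNA3, 33.7% and 34.1% with shRNA1 and 30.7% and 31.6% in WT. Fzd6 held 26.6% and 23.8% with shRNA3, 29.9% and 28.0% with shRNA1 and 33.7% and 31.7% in WT.

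Of the co-receptors, Lrp5 was higher with both hairpins, Ryk with shRNA3 alone, and Lrp6 and Ror1 did not pass any test. Lrp5, a co-receptor of the beta-catenin branch best known from bone mass disorders in humans (chromosome 19, 3584828 to 3686564, minus strand), was at 66.0 and 67.5 FPKM with shRNA3, 72.6 and 68.3 FPKM with shRNA1 and 53.8 and 56.8 FPKM in WT. All knockdown libraries lay above WT, and the log2 change was 0.31 ± 0.04 over both hairpins (SE, limma, Benjamini-Hochberg adjusted p = 0.000772). Its paralog Lrp6 was at 14.99 and 15.1 FPKM with shRNA3, 13.7 and 15.04 FPKM with shRNA1 and 14.5 and 14.2 FPKM in WT, with a log2 change of 0.04 (95% interval -0.09 to 0.16).

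Ryk, a receptor of the branch without beta-catenin that guides axons, was at 99.1 and 98.7 FPKM with shRNA3, 81.8 and 84.3 FPKM with shRNA1 and 88.8 and 87.1 FPKM in WT. The 3 groups did not overlap, with WT in the middle. Ryk was higher with shRNA3 than with shRNA1 (log2 0.25 ± 0.04, SE, limma, Benjamini-Hochberg adjusted p = 0.00215) and than in WT (log2 0.17 ± 0.04, adjusted p = 0.00866), and the call against WT ended when libraries were rescaled to the same total (log2 0.09, adjusted p = 0.123, range over all settings 0.00806 to 0.123). Ror1, an orphan-type receptor kinase that binds WNT5A, was at 3.10 and 3.42 FPKM with shRNA3, 2.84 and 2.98 FPKM with shRNA1 and 2.90 and 3.003 FPKM in WT, a log2 change over both hairpins of 0.05 (95% interval -0.13 to 0.23).

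Ctnnb1, which encodes beta-catenin (chromosome 9, 120929216 to 120960507, plus strand), was the most abundant member and differed between the hairpins. It was at 571 and 557 FPKM with shRNA3, 681 and 701 FPKM with shRNA1 and 591 FPKM in both WT libraries. The shRNA1 libraries lay above WT and the shRNA3 libraries below it. The log2 change was -0.29 ± 0.04 for shRNA3 against shRNA1 (SE, limma, Benjamini-Hochberg adjusted p = 0.000797), 0.23 ± 0.04 for shRNA1 against WT (adjusted p = 0.00306) and -0.07 ± 0.04 for shRNA3 against WT (adjusted p = 0.165). The difference between the hairpins held in all alternatives, and each hairpin kept its direction against WT. The calls against WT and the direction over both hairpins depended on the scaling. With quantile normalization Ctnnb1 was 0.04 higher with shRNA1 and no longer called (adjusted p = 0.413), and it was called lower with shRNA3 (-0.28, adjusted p = 0.000437) and over both hairpins (-0.12, adjusted p = 0.0157, range over all settings 0.0157 to 0.758), and with libraries rescaled to the same total it was called lower with shRNA3 (-0.14, adjusted p = 0.0112). Exons of Ulk4, on the other strand, overlap those of Ctnnb1, and Ulk4 was at 1.81 to 3.13 FPKM.

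Axin1, the scaffold of the destruction complex, was at 26.1 and 26.6 FPKM with shRNA3, 23.9 and 22.7 FPKM with shRNA1 and 28.0 and 27.1 FPKM in WT. The groups did not overlap, and shRNA1 was the lowest. Its log2 change was -0.23 ± 0.05 for shRNA1 against WT (SE, limma, Benjamini-Hochberg adjusted p = 0.0102) and 0.17 ± 0.05 for shRNA3 against shRNA1 (adjusted p = 0.0288). The call of shRNA1 ended without WT replicate 1 (adjusted p = 0.0591) and without shRNA1 replicate 2 (0.0624, the highest over all settings, from 0.0049), and that between the hairpins without shRNA1 replicate 2 (0.150, the highest over all settings, from 0.0237) without either shRNA3 library (0.0789 and 0.120), and with quantile normalization (0.0595) or rescaling to the same total (0.0603). Over both hairpins the log2 change of Axin1 was called, and the call ended without WT replicate 1 (limma, adjusted p = 0.154, within 0.0073 to 0.256 over all settings), WT replicate 2 (0.0599), shRNA1 replicate 2 (0.0661) or shRNA3 replicate 1 (0.0628). Apc, the tumour suppressor that partners Axin1, was at 4.54 and 4.75 FPKM with shRNA3, 4.12 and 4.30 FPKM with shRNA1 and 4.95 and 4.87 FPKM in WT. All its knockdown libraries lay below WT, but no test was passed (log2 over both hairpins -0.12 ± 0.07, adjusted p = 0.151). Axin2, a gene that beta-catenin signalling induces in many tissues and a common readout of it, was listed at 0 in 5 libraries and at 0.014 FPKM in shRNA3 replicate 1.

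The transcription factor gene Tcf7 was higher with both hairpins, whereas Lef1 was called against WT with shRNA3 and not with shRNA1. Tcf7, which encodes TCF1 (chromosome 11, 52252371 to 52283014, minus strand), was at 12.8 and 13.5 FPKM with shRNA3, 11.4 and 10.5 FPKM with shRNA1 and 8.05 and 8.78 FPKM in WT. The 3 groups did not overlap, and they stood in the order shRNA3, shRNA1, WT. Tcf7 was 1.56-fold higher with shRNA3 and 1.30-fold higher with shRNA1, with log2 changes of 0.59 ± 0.07 and 0.34 ± 0.07 (SE, limma, Benjamini-Hochberg adjusted p = 0.000285 and 0.00753).

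Lef1 was at 4.44 and 4.88 FPKM with shRNA3, 3.59 and 3.10 FPKM with shRNA1 and 3.11 and 2.19 FPKM in WT. The shRNA3 libraries lay above the other 4, and 1 shRNA1 library lay just below the higher WT library. Lef1 rose 1.76-fold with shRNA3 (log2 0.64 ± 0.13, SE, limma, Benjamini-Hochberg adjusted p = 0.00395), and with shRNA1 it did not pass the test (log2 0.26 ± 0.13, adjusted p = 0.156). Between the hairpins the log2 difference was 0.25 ± 0.07 for Tcf7 and 0.38 ± 0.13 for Lef1 (limma, adjusted p = 0.0241 and 0.0472). Both of these calls ended without shRNA1 replicate 2 (adjusted p = 0.129 and 0.194, the highest over all settings, from 0.0204 and 0.0179) and without either shRNA3 library (0.0519 and 0.122 for Tcf7, 0.0919 and 0.193 for Lef1). That of Tcf7 was also lost with no filter (0.0545), and that of Lef1 also without shRNA1 replicate 1 (0.0652) and under 5 other settings, such as rescaling to the same total (0.0525). The call of Lef1 over both hairpins (adjusted p = 0.0119) ended without WT replicate 2 (0.0909, range over all settings 0.00534 to 0.129).

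**Figure D3:**
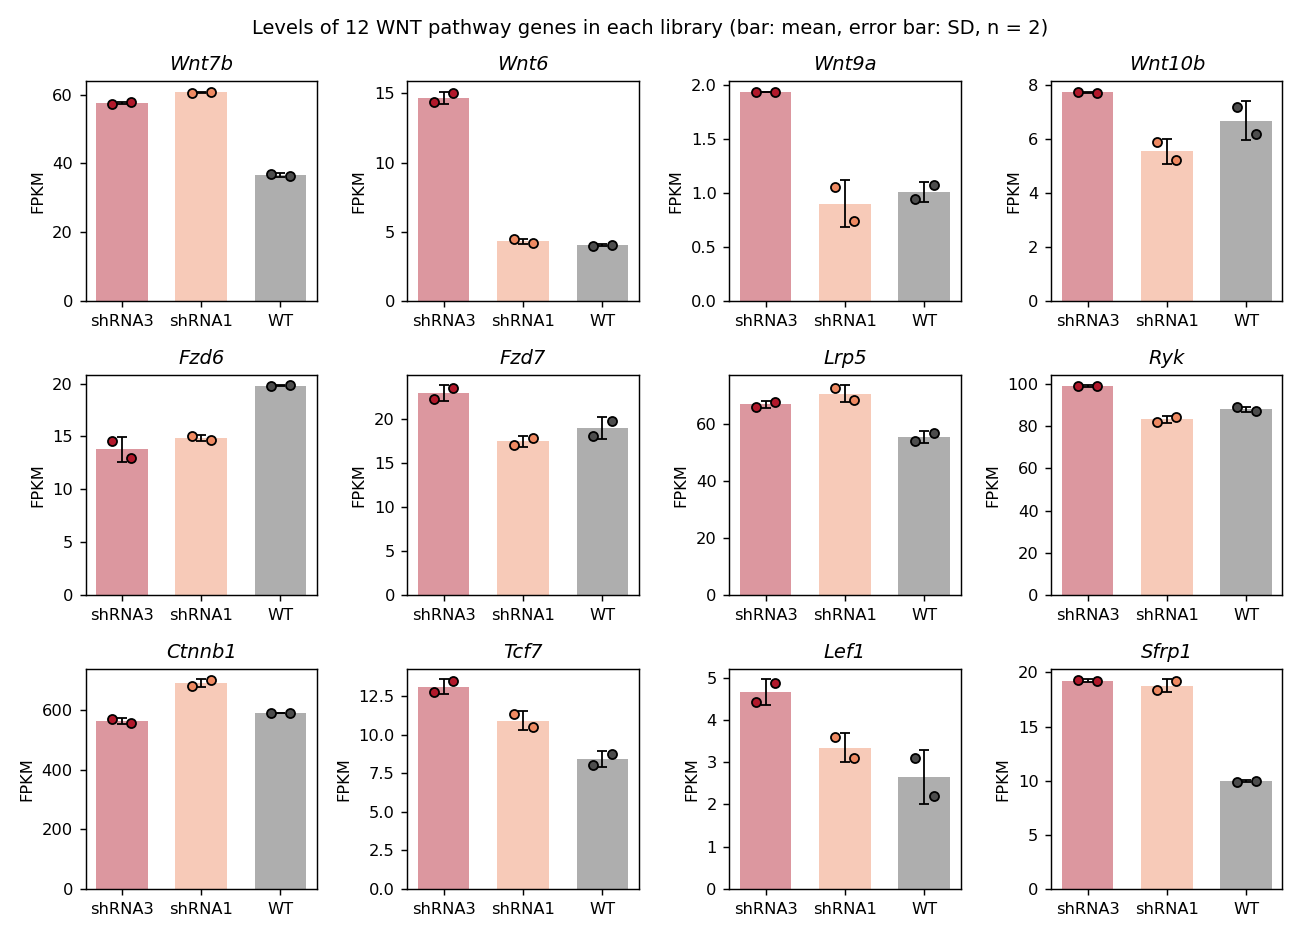
Level in FPKM of 12 WNT pathway genes, with 1 point for each library, bars for the mean and error bars for the SD (n = 2), for shRNA3 (red), shRNA1 (orange) and WT (grey), each panel with its own axis from 0. Wnt6 and Wnt9a are high with shRNA3 and near the same level with shRNA1 and in WT, while Wnt7b and Sfrp1 are near the same level with both hairpins and higher than in WT.

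Sfrp1, a secreted Frizzled-like protein that binds WNT ligands (chromosome 8, 23411502 to 23449632, plus strand), was higher with both hairpins. It was at 19.3 and 19.2 FPKM with shRNA3, 18.4 and 19.2 FPKM with shRNA1 and 9.90 and 10 FPKM in WT. The knockdown libraries lay far above WT and overlapped with each other. The rise was 1.93-fold with shRNA3 and 1.89-fold with shRNA1, a log2 change over both hairpins of 0.87 ± 0.05 (SE, limma, Benjamini-Hochberg adjusted p = 6.56e-06), and the hairpins differed by 0.03 (95% interval -0.09 to 0.16, adjusted p = 0.642). An inhibitor of WNT ligands and the main ligand, Wnt7b, were thus both higher in the knockdown cells. Dkk1, the other secreted inhibitor in the family, was listed at 0 in every library.

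Porcn, the acyltransferase that adds the lipid WNT ligands need for secretion (chromosome X, 8193848 to 8206525, minus strand), was at 1.98 and 2.18 FPKM with shRNA3, 2.75 and 2.67 FPKM with shRNA1 and 3.19 and 3.45 FPKM in WT. The 3 groups did not overlap, with shRNA3 the lowest. Porcn fell by 0.49 on the log2 scale with shRNA3 (SE 0.09, limma, Benjamini-Hochberg adjusted p = 0.00306), and its change of -0.22 with shRNA1 did not pass the test (adjusted p = 0.106). Znrf3, a ubiquitin ligase that removes Frizzled receptors from the cell surface, was at 4.21 and 4.82 FPKM with shRNA3, 4.26 and 4.19 FPKM with shRNA1 and 4.32 and 3.97 FPKM in WT, a log2 change over both hairpins of 0.06 (95% interval -0.12 to 0.24). Its relative Rnf43 was listed at 0 with shRNA1 and in WT and at 0.056 and 0.083 FPKM with shRNA3, below the filter, and no fold is given for it. The call of Porcn over both hairpins (adjusted p = 0.0083) ended without WT replicate 2 (0.0639, range over all settings 0.00292 to 0.105).

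Beyond the family, 5 lists of other genes of the pathway were examined with the same fit. Calls of these list genes were not checked under the alternative settings used for the members. The 29 secreted modulators and receptor partners had 9 members that could be tested, of which 2 were higher and 2 lower over both hairpins, beside 24.1% of all genes called higher and 25.9% lower, with a median log2 change of -0.01, the same as over all genes. Kremen1, a DKK co-receptor that removes LRP6 from the surface, averaged 17.7 ± 0.674 FPKM with shRNA3, 13.8 ± 0.274 FPKM with shRNA1 and 11.0 ± 0.301 FPKM in WT (SD, n = 2 each). Wls, the carrier that takes WNT ligands to the cell surface, averaged 83.3 ± 3.35 FPKM with shRNA3, 73.5 ± 3.94 FPKM with shRNA1 and 71.2 ± 2.98 FPKM in WT, and its call over both hairpins was near the threshold (log2 0.14 ± 0.05, limma, Benjamini-Hochberg adjusted p = 0.0471). Shisa2, which holds Frizzled receptors in the endoplasmic reticulum, fell to 5.79 ± 0.431 FPKM with shRNA3 and 7.47 ± 0.121 FPKM with shRNA1, against 10.7 ± 0.357 FPKM in WT. Lgr6, an R-spondin receptor, fell by 0.28 on the log2 scale (adjusted p = 0.00743). Wls and Lgr6 were called with shRNA3 (limma, adjusted p = 0.00974 and 0.00279) and not with shRNA1 (0.563 and 0.0953).

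In the cytoplasmic pathway 7 of 23 tested genes were higher and 4 lower over both hairpins, near the 24.1% and 25.9% of all genes (median 0.02). Of the Dishevelled genes, which relay the signal from Frizzled receptors, Dvl1 rose to 54.9 ± 0.987 FPKM with shRNA3 and 41.4 ± 1.99 FPKM with shRNA1, against 36.6 ± 2.25 FPKM in WT, whereas Dvl3 fell to 29.5 ± 0.723 FPKM with shRNA3 and 27.3 ± 2.50 FPKM with shRNA1, against 34.4 ± 0.817 FPKM in WT. The kinase gene Csnk1e and Macf1, a cytoskeletal linker that binds Axin, rose by log2 changes of 0.32 and 0.33, and Rnf146, a ubiquitin ligase of Axin turnover, and Csnk1g3, a kinase gene, fell by 0.22 and 0.18 (limma, adjusted p from 0.000786 to 0.0284). Rnf146 and Csnk1g3 were called with shRNA3 (limma, adjusted p = 0.00489 and 0.0281) and not with shRNA1 (0.101 and 0.0944). Between the hairpins 8 of the 23 were higher with shRNA3 and 0 were lower, beside 22.0% and 20.5% of all genes (median 0.10, beside 0.01 for all genes).

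Among the nuclear partners 2 of 23 tested genes were higher and 10 lower over both hairpins, beside 24.1% and 25.9% of all genes, with a median of -0.10, beside -0.01 for all genes. The share called in either direction was near the 50.0% of all genes. The falls were led by Ctbp1, Tle2 and Nlk. Ctbp1, a corepressor, averaged 45.7 ± 1.49 FPKM with shRNA3, 53.5 ± 0.977 FPKM with shRNA1 and 66.0 ± 0.707 FPKM in WT (log2 -0.41 ± 0.04, SE, limma, Benjamini-Hochberg adjusted p = 0.000119). Tle2, a Groucho-type corepressor, averaged 19.9 ± 1.29 FPKM with shRNA3, 26.2 ± 0.754 FPKM with shRNA1 and 29.6 ± 1.65 FPKM in WT. Nlk, a kinase that acts on TCF and LEF factors, fell by 0.31 on the log2 scale (adjusted p = 0.00519). Tle2 and Nlk were called with shRNA3 (limma, adjusted p = 0.000249 and 0.00239) and not with shRNA1 (0.0756 and 0.0560). Jup, the plakoglobin gene and a close relative of Ctnnb1, and Tcf7l1, which encodes TCF3, were the 2 that rose, by log2 changes of 0.39 and 0.28 (adjusted p = 0.000496 and 0.0124). Tcf7l1 was called with shRNA3 (limma, adjusted p = 0.00969) and not with shRNA1 (0.0620).

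Genes known as targets of beta-catenin signalling in various tissues had 7 of 16 tested higher and 3 lower over both hairpins, beside 24.1% and 25.9% of all genes (median 0.10). Of those 7, only Ptgs2, Jun, Id2 and Birc5 were called higher with each hairpin. Fosl1 was called higher with shRNA1 (log2 0.72, limma, adjusted p = 6.22e-05) and lower with shRNA3 (log2 -0.24, adjusted p = 0.00615). Wisp1 was called against WT with shRNA1 alone and Wisp2 with shRNA3 alone. Ptgs2, the gene of cyclooxygenase-2, averaged 143 ± 3.41 FPKM with shRNA3, 158 ± 4.64 FPKM with shRNA1 and 61.4 ± 3.02 FPKM in WT. Jun and Id2, both transcription regulators, rose by log2 changes of 0.82 ± 0.04 and 0.71 ± 0.05 (SE, limma, Benjamini-Hochberg adjusted p = 2.94e-06 and 3.6e-05). Ccnd1, the cyclin D1 gene, averaged 266 ± 9.01 FPKM with shRNA3, 466 ± 2.09 FPKM with shRNA1 and 454 ± 2.27 FPKM in WT, so its fall over both hairpins was that of shRNA3 (shRNA3 against shRNA1, log2 -0.81, adjusted p = 1.13e-05). Sox9 fell to 21.0 ± 1.73 FPKM with shRNA3 and 25.9 ± 1.10 FPKM with shRNA1, against 32.7 ± 1.34 FPKM in WT. Tnfrsf19, the TROY receptor gene, was lowest with shRNA1, at 33.9 ± 0.307 FPKM, with 46.9 ± 2.39 FPKM with shRNA3 and 56.6 ± 2.53 FPKM in WT. Between the hairpins 3 of the 16 targets were higher with shRNA3 and 8 were lower, beside 22.0% and 20.5% of all genes (median -0.15, beside 0.01 for all genes). These genes answer to other pathways too, and 10 of the 26 listed did not reach the filter.

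Of the genes of planar cell polarity, the branch that orients cells in a sheet, 6 of 20 tested were higher and 3 lower over both hairpins, near the 24.1% and 25.9% of all genes (median 0.07). Rock2, a kinase gene of the cytoskeleton, averaged 56.2 ± 1.52 FPKM with shRNA3, 39.2 ± 2.58 FPKM with shRNA1 and 38.7 ± 1.62 FPKM in WT, so that the rise was that of shRNA3 (shRNA3 against shRNA1, log2 0.51 ± 0.06, SE, limma, Benjamini-Hochberg adjusted p = 0.000459). The kinase gene Mapk9 and the core polarity gene Prickle1 rose by log2 changes of 0.31 and 0.30 over both hairpins (adjusted p = 0.00158 and 0.00315). Prickle1 was called with shRNA3 (log2 0.45, limma, adjusted p = 0.000698) and not with shRNA1 (log2 0.15, adjusted p = 0.114). Invs, the inversin gene, fell to 4.17 ± 0.109 FPKM with shRNA3 and 4.19 ± 0.0665 FPKM with shRNA1, against 5.44 ± 0.301 FPKM in WT. The core polarity gene Vangl2 and the kinase gene Mapk8 fell by 0.28 and 0.24 on the log2 scale (adjusted p = 0.0324 and 0.018). Both were called with shRNA3 (limma, adjusted p = 0.0430 and 0.00702) and not with shRNA1 (0.0799 and 0.174).

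**Figure D4:**
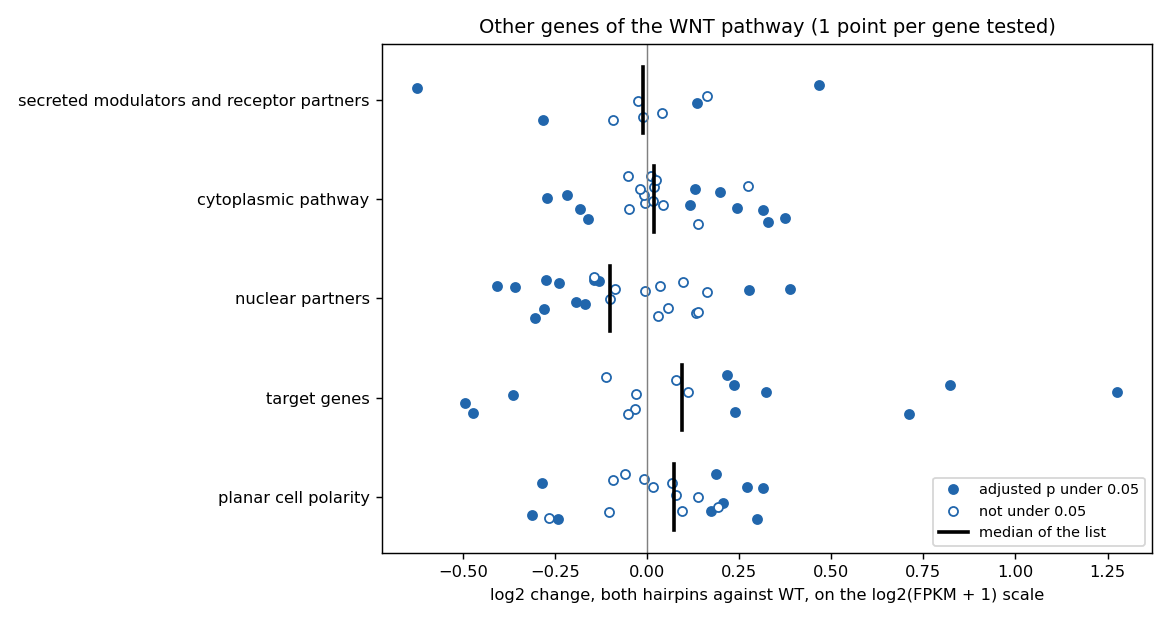
Log2 change over both hairpins against WT, on the log2(FPKM + 1) scale, for each tested gene of 5 lists of the WNT pathway outside the family (1 point per gene, filled for an adjusted p under 0.05, black bar for the median of the list). Most medians lie close to 0, the nuclear partners have 10 filled points to the left and 2 to the right, and the target genes range from -0.49 to 1.28.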

How the data were processed

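The libraries were made from total RNA with a stranded kit for messenger RNA, per the labels' protocols, and groups follow the sample titles. Each library has its own deposited table of gene symbols and values. The tables do not write the unit, and the deposited values were taken as FPKM because the submitters' processing notes name Cufflinks 2.2.1. Also listed there, without roles, are SAMtools 0.1.19, Bowtie2 2.2.3, TopHat2 2.0.13 and mm10. No source used here gives the annotation, whether strand was used, or how reads with several matches were counted.

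Values were turned into log2(FPKM + 1), and the 11079 genes whose average reached 1 FPKM were kept. With limma 3.58.1 (R 4.3.3, trend in the prior variance) a means model of the 3 groups was fitted across the 6 libraries, with 3 residual and 4.96 prior degrees of freedom. Two-sided p-values of each of the 4 contrasts were Benjamini-Hochberg adjusted over all these genes, with a threshold of 0.05. The fit was also run on simulated data in which few genes changed, alike in both hairpin groups. Here many genes were called and the hairpins differed, so that run does not measure the error of these calls. The members and lists were chosen with earlier results of these data known. All members are named; from each further list the 3 largest called rises and falls over both hairpins are named, or fewer where fewer were called. Ratios are ratios of group means. Low values count as whole fragments within 0.05 of a whole number. Coordinates are from GENCODE mouse release M21 on GRCm38, the assembly of mm10, which matched all 45 symbols, and promoters from RefSeq. Tables, exact tests and figures used matplotlib 3.10.9, SciPy 1.17.1, NumPy 2.4.6 and pandas 2.3.3 in Python 3.11.15. The alternatives were pseudocounts of 0.1 and 0.5, a filter at 5 FPKM or none, quantile normalization, median-of-ratios scaling, a common total for all libraries, all 4 knockdown libraries in 1 group, a replicate block, no trend, and leaving out each library. For the count of expressed members they were both scalings, an average of 0.5 FPKM, and 1 FPKM or more in every library of a group.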

Additional observations from a re-analysis of the deposited data

Results flagged for a closer look

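The 9 members whose effects differed between the hairpins, by the test of shRNA3 against shRNA1, are gathered here as differences of shRNA3 minus shRNA1 on the log2(FPKM + 1) scale (limma, Benjamini-Hochberg adjusted p under 0.05), beside 42.5% of all genes called in the same test. The ligands Wnt6, Wnt9a and Wnt10b differed by 1.56, 0.63 and 0.42, and the receptors Fzd7 and Ryk by 0.37 and 0.25. Wnt9a reached the filter only through the shRNA3 libraries. The nuclear factors Lef1 and Tcf7 differed by 0.38 and 0.25, and the destruction complex gene Axin1 by 0.17. Ctnnb1 was the one member lower with shRNA3, at -0.29. In 2 of 2 shRNA3 libraries each of the first 8 genes stood above both shRNA1 libraries, and Ctnnb1 stood below both. The genes were picked by the test on these same libraries, so this separation adds no support to their calls. The calls of Wnt6, Wnt9a, Wnt10b, Fzd7, Ryk and Ctnnb1 held under every alternative in which they could be tested.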

How the results depend on the processing

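Of 1367 recomputed changes of tested members, 1271 kept their direction and side of the threshold, 53 lost and 17 gained a call, and 26 turned direction. With the 4 knockdown libraries as 1 group, 5 members and 1513 genes were called over both hairpins, against 11 and 5538. Leaving out each library gave 6 to 11 members over both hairpins, 10 to 13 for shRNA3, 6 to 8 for shRNA1, 6 to 10 for shRNA3 against shRNA1, and an AU021063 level of 25.9% to 45.8% of WT. Whichever library was left out, fewer of all genes were called than with all 6 libraries, in each of the 4 comparisons. The count of members fell in some of these runs and stayed the same or rose in others. The expressed members numbered 23 to 25. The one turned direction with a call was that of Ctnnb1 over both hairpins with quantile normalization (-0.12). The others, none with a call, were small. With quantile normalization they were Wnt10b over both hairpins (0.0040), and Fzd2 (0.013) and Fzd4 (0.011) for shRNA3 against shRNA1. With libraries rescaled to the same total they were Lrp6 (-0.026), Ror1 (-0.0033) and Ryk (-0.022) over both hairpins, Lrp6 for shRNA3 (-0.0026), and Fzd5 (-0.023), Lrp6 (-0.049) and Znrf3 (-0.023) for shRNA1. Leaving out single libraries turned Wnt10b over both hairpins (range -0.12 to 0.075), and for shRNA1 Fzd4 (-0.15 to 0.045), Fzd5 (-0.024 to 0.077), Lrp6 (-0.057 to 0.066), Ror1 (-0.042 to 0.011), Wnt10a (-0.19 to 0.055), Wnt9a (-0.20 to 0.034) and Znrf3 (-0.025 to 0.072). For shRNA3 against shRNA1 it turned Fzd2 (-0.089 to 0.076), Fzd4 (-0.14 to 0.054) and Znrf3 (-0.0041 to 0.16). The cause was not tested. Libraries of the same replicate number did not deviate together in every pair of groups (correlation of deviations over 11079 genes 0.20 for shRNA3 and shRNA1, -0.07 for shRNA3 and WT, 0.01 for shRNA1 and WT), and a replicate block gave 5205 called genes and 10 called members over both hairpins, 5797 and 13 for shRNA3, 3523 and 7 for shRNA1, and 4308 and 10 for shRNA3 against shRNA1. FPKM are relative to the mapped total, 2 libraries per group limit the precision, and members under 1 FPKM rest on few fragments.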

Other observations

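Genes next to the ligand genes on the chromosome were read out as values. Atxn10, next to Wnt7b, was at 69.99 and 72.9 FPKM with shRNA3, 62.1 and 63.8 FPKM with shRNA1 and 54.3 and 55.5 FPKM in WT. The other expressed neighbour of Wnt7b, Cdpf1, was at 6.59 and 6.70 FPKM with shRNA3, 7.42 and 7.35 FPKM with shRNA1 and 7.78 and 8.37 FPKM in WT. Near Wnt9a, Arf1 was at 291 and 296 FPKM with shRNA3, 243 and 245 FPKM with shRNA1 and 246 and 250.5 FPKM in WT, with a log2 change of 0.27 for shRNA3 against shRNA1 (limma, Benjamini-Hochberg adjusted p = 0.00103). Snap47, also near Wnt9a, was at 78.1 and 74.9 FPKM with shRNA3, 70.5 and 69.7 FPKM with shRNA1 and 60.1 and 62.4 FPKM in WT (log2 0.12 for shRNA3 against shRNA1, adjusted p = 0.0523). Arf3, the nearest neighbour of Wnt10b, was at 94.6 and 89.8 FPKM with shRNA3, 87.5 and 90.8 FPKM with shRNA1 and 79.8 and 86.0 FPKM in WT (log2 0.05 for shRNA3 against shRNA1, adjusted p = 0.489). Fkbp11, farther from Wnt10b, was at 54.0 and 54.4 FPKM with shRNA3, 49.7 and 41.6 FPKM with shRNA1 and 56.2 and 52.4 FPKM in WT (log2 0.25 for shRNA3 against shRNA1, adjusted p = 0.0362). In each of the other 2 pairs of ligand genes that lie near an expressed one, the partner was at or near 0: Wnt3a next to Wnt9a was listed at 0, and Wnt1 next to Wnt10b averaged 0.163 FPKM.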
